A study of Mus musculus with 7 samples.

Results

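The genes described here are the numbered mouse Zfp genes that were expressed in the uterus. A row of the deposited expression table was taken where its symbol was Zfp followed by digits alone and its mean over the 7 libraries was at least 2 FPKM, a count of sequenced fragments divided by transcript length and library size. This rule took 263 of 337 numbered Zfp rows, out of 31274 rows in all. RNA sequencing had been done on whole uteri of unexposed CD-1 mice, an outbred laboratory stock, at 2 months of age. There were 4 libraries from uteri in diestrus, the phase of the estrous cycle dominated by progesterone, and 3 from uteri in estrus, which follows the estradiol peak. No gene was altered, and the mice were intact and untreated in both groups. The libraries came from whole tissue, in which a lower value can mean fewer cells of a type or less RNA per cell, and these cannot be told apart. No label ties a library to an animal, and the p-values therefore cover the spread among these 7 libraries, which may be technical.

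Zfp genes encode zinc finger proteins, most of the Cys2-His2 (C2H2) type, in which a pair of cysteines and a pair of histidines hold a zinc ion in each finger and neighbouring fingers are joined by a short conserved linker. The finger array reads a DNA sequence, and in many members a KRAB domain ahead of the fingers recruits the corepressor Trim28 and, through it, histone and DNA methylation. KRAB zinc finger genes lie in clusters that grew by duplication, and many of their proteins bind transposable elements or imprinted regions. Other numbered Zfp genes have no KRAB domain and act in cell differentiation, in RNA decay or in protein turnover, so the symbol is a mixed group rather than a single pathway. In coding sequences of GENCODE M21 translated by a script, the members held a median of 10 C2H2 fingers and at most 30, and 9 members held none that the search pattern could find. A KRAB pattern was found in 139 members (52.9%). Over all 21877 coding genes, 3.46% held at least 1 finger, and 41.9% of those also held a KRAB pattern. The pattern misses divergent boxes, such as that of Zfp445.

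The repeated unit that members share is printed here as 1 finger with its linker from each of 7 members: the 4 higher KRAB members of chromosome 17, and 3 members that were lower in estrus. Each stretch is the first in the gene's coding sequence to match the full unit, is read 5′ to 3′ on the coding strand, and lies whole in the last coding exon (GRCm38). Capitals mark the codons of the zinc-binding cysteines and histidines.

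Zfp946: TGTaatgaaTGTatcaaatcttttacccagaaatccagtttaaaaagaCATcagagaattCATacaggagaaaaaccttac
Zfp52: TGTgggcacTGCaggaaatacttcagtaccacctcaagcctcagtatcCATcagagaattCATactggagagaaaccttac
Zfp54: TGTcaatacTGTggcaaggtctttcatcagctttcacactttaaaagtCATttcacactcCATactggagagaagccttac
Zfp472: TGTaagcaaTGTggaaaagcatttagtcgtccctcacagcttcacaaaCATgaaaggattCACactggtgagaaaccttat
Zfp61: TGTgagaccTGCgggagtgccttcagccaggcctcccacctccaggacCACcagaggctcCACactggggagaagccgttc
Zfp30: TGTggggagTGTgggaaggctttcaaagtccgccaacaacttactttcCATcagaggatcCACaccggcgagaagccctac
Zfp13: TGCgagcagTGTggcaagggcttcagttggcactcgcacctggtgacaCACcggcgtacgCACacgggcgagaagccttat

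These stretches lie at chr17:22454996-22455076 (Zfp946, plus strand, exon 7), chr17:21560453-21560533 (Zfp52, plus strand, exon 5), chr17:21434146-21434226 (Zfp54, plus strand, exon 5), chr17:32977631-32977711 (Zfp472, plus strand, exon 4), chr7:24291624-24291704 (Zfp61, minus strand, exon 7), chr7:29792644-29792724 (Zfp30, plus strand, exon 5) and chr17:23576714-23576794 (Zfp13, minus strand, exon 6). Each is 81 bases long. Over the 21 pairs among them, 50.6% to 65.4% of positions were identical, with a median of 61.7%. Such a full unit was found in 181 of the 263 members. Short reads can fit more than 1 gene where transcripts share identical stretches, and whether such stretches lay in finger units was not tested. The share of a member's 50-base words that also occur, on either strand, in transcripts of another gene had a median of 0.53%. It was 0 in 103 members and over 10% in 59.

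The 7 libraries differed in the weight of their most abundant transcripts. The 10 highest rows took 33.7% to 38.2% of the FPKM sum in the estrus libraries, 34.2% in diestrus replicate 1, and 12.2% to 18.7% in diestrus replicates 2 to 4, so diestrus replicate 1 stood apart from its group. FPKM carries no read count, so the depth behind each value is unknown. The median member was at 6.41, 5.95, 6.70 and 6.24 FPKM in diestrus replicates 1 to 4 and at 5.84, 5.66 and 5.95 FPKM in estrus replicates 1 to 3. The groups did not overlap on this value, although diestrus replicate 2 (5.949 FPKM) and estrus replicate 3 (5.945 FPKM) were nearly equal. Over all tested genes the median was 11.9 to 12.3 FPKM in diestrus and 12.5 to 12.6 FPKM in estrus. The uterine genes Esr1, Pgr, Hoxa10, Hoxa11, Msx1 and Wnt7a were above 0 in every library, with a summed level of 514.5 to 594.4 FPKM in diestrus and 312.6 to 332.7 FPKM in estrus. Of these 6, Hoxa10 and Hoxa11 were lower in estrus, and both are also in the stromal list used further on.

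More Zfp genes were lower than higher in estrus. In limma on log2(FPKM + 1), with Benjamini-Hochberg adjusted p under 0.05 over 13920 tested genes, 63 of the 263 members (24.0%) were lower in estrus, beside 14.0% of all tested genes. In the other direction, 10 members (3.80%) were higher, beside 17.2% of all tested genes. Counted in either direction, 73 members were called, beside 31.1% of all tested genes. The median log2 difference, estrus minus diestrus, was -0.16 over the members and 0.05 over all tested genes. At an unadjusted p under 0.05 the counts were 83 lower and 23 higher, beside 20.2% and 24.7% of all tested genes. All 263 members had passed the filter on low values, at least 1 FPKM in at least 3 libraries. The 3 estrus libraries lay wholly below the 4 diestrus libraries in 97 members and wholly above them in 21, beside 18.7% and 21.9% of all tested genes. The differences were small: 5 of the lower and 1 of the higher members passed 2-fold on the log2(FPKM + 1) scale, beside 5.15% and 6.79% of all tested genes.

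Single libraries moved these counts. Without estrus replicate 2, 17 members were lower and 2 higher. Leaving out diestrus replicate 4 gave 34 and 4, leaving out estrus replicate 1 gave 38 and 6, and leaving out diestrus replicate 2 gave 49 and 5. The counts were 67 and 18 without diestrus replicate 1. Over the whole table, 4336 genes were called in either direction with all libraries. That count was 1433 without estrus replicate 2, 2559 without diestrus replicate 4 and 2633 without estrus replicate 1. It was 3267 without diestrus replicate 2 and 5311 without diestrus replicate 1. No called member changed sign when any 1 library was left out. In 62 of the 63 lower and 9 of the 10 higher members the groups did not overlap, so for these the sign could not change. In all 7 such fits, 17 of the 63 lower and 2 of the 10 higher members passed. Diestrus replicate 1 was the lowest diestrus library in 42 of the 63 lower members and the highest in 7 of the 10 higher members, that is, on the side of the estrus values.

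**Figure D1:**
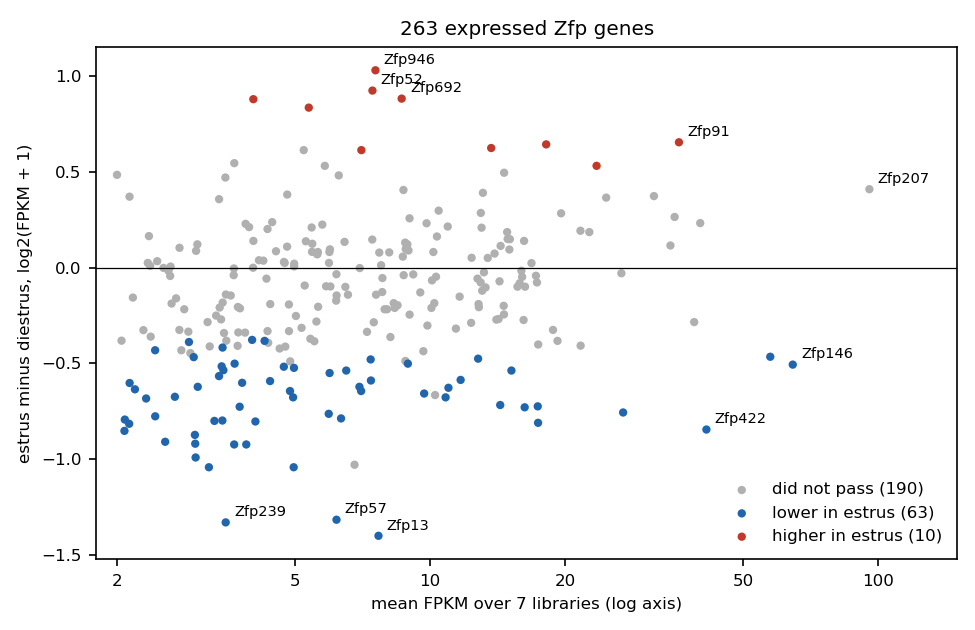
Difference between estrus and diestrus on the log2(FPKM + 1) scale against the mean FPKM over 7 libraries (log axis) for the 263 members. Each point is a gene, and the 63 lower members (blue) reach -1.40 while the 10 higher members (red) reach 1.03.

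The called members differed in level between the groups in nearly every library. The median of the 63 lower members was 4.86, 5.69, 5.37 and 5.45 FPKM in diestrus replicates 1 to 4 and 2.88, 2.83 and 3.28 FPKM in estrus replicates 1 to 3. For the 10 higher members the medians were 6.87, 5.44, 7.93 and 4.45 FPKM in diestrus and 11.4, 11.8 and 11.7 FPKM in estrus. The 2 sets were chosen by this same contrast, so these medians describe them and test nothing. The log2 differences ran from -1.40 to -0.38 in the lower set and from 0.53 to 1.03 in the higher set. In 62 of the 63 lower and 9 of the 10 higher members the groups did not overlap, and the exceptions were Zfp422 and Zfp704.

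**Figure D2:**
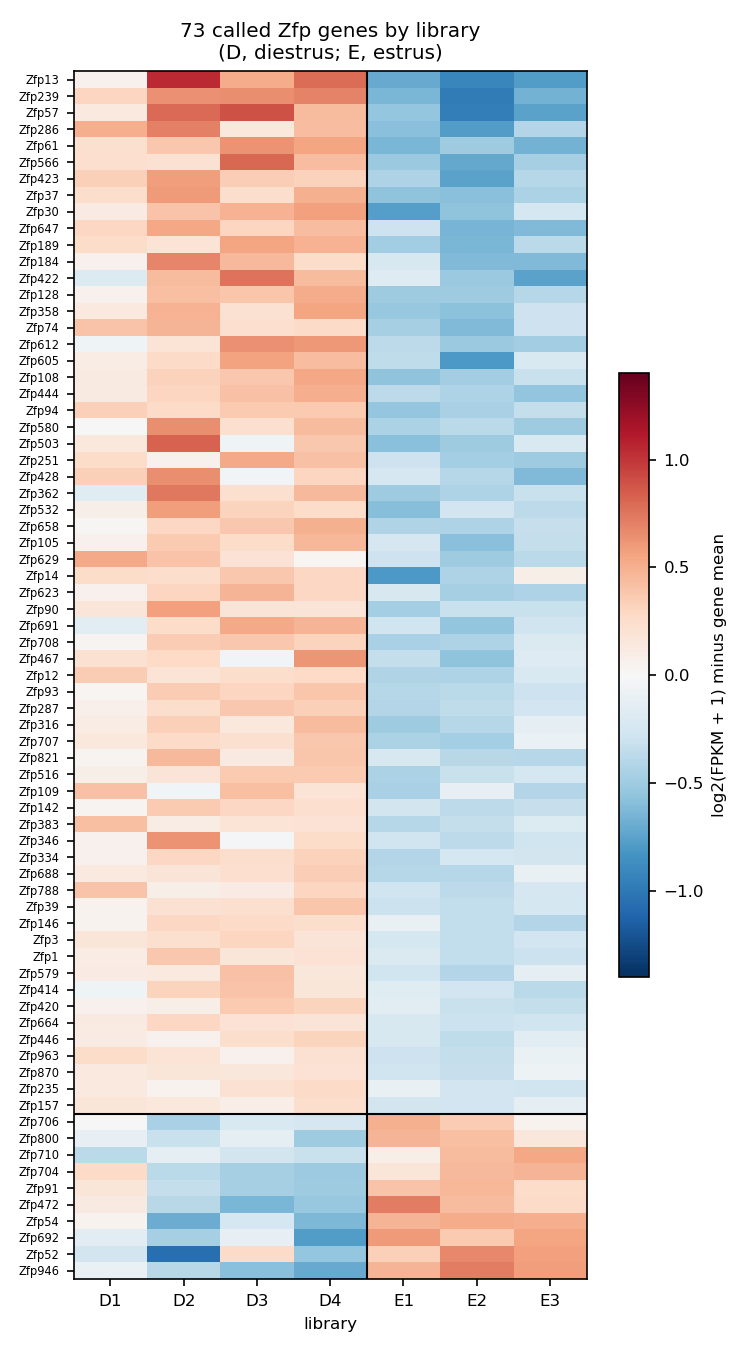
Log2(FPKM + 1) of the 73 called members (rows) minus the gene's mean, by library (columns D1 to D4, diestrus; E1 to E3, estrus). Red is above and blue below the gene's mean, and the 63 lower members stand above the 10 higher ones.

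The 3 members with the largest decreases were Zfp13, Zfp239 and Zfp57. Zfp13 (chr17:23569846-23599755, GRCm38, RefSeq), a KRAB member with 8 fingers, was at 6.96, 14.7, 9.89 and 12.1 FPKM in diestrus and at 3.67, 3.05 and 3.41 FPKM in estrus. The estrus libraries lay close together and all below the diestrus range. Its log2 difference was -1.40 ± 0.23 (SE; limma, Benjamini-Hochberg adjusted p = 0.00521), and the exact permutation p was 0.0286, the smallest that 35 assignments of 7 libraries allow. Zfp239, a finger protein without a KRAB pattern, was at 3.98, 5.31, 5.37 and 5.59 FPKM in diestrus and at 1.61, 1.06 and 1.56 FPKM in estrus. The ratio of means was 3.59-fold and the log2 difference -1.33 ± 0.16 (SE; limma adjusted p = 0.00222). With an estrus mean of 1.41 FPKM, Zfp239 met the 2 FPKM rule only through its diestrus mean, so that it was lower in estrus was fixed by the choice of members.

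Zfp57 binds methylated TGCCGC sites at imprinting control regions and, with Trim28, keeps their methylation. It was at 6.05, 10.1, 10.9 and 7.70 FPKM in diestrus and at 3.41, 2.28 and 2.82 FPKM in estrus. Every diestrus library was above every estrus library, with means of 8.69 ± 2.23 (SD, n = 4) and 2.84 ± 0.57 FPKM (SD, n = 3). The log2 difference was -1.32 ± 0.21 (SE; limma adjusted p = 0.00514). Zfp13, Zfp239 and Zfp57 each passed the test in all 7 fits that left out 1 library. For Zfp239, which met the rule only through its diestrus mean, this describes the chosen gene and supports no direction. The 50-base words of Zfp13, Zfp239 and Zfp57 occurred in no other gene's transcripts.

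A further 12 members completed the 15 largest decreases: Zfp286, Zfp61, Zfp566, Zfp423, Zfp37, Zfp30, Zfp647, Zfp189, Zfp184, Zfp422, Zfp128 and Zfp358. Their log2 differences ran from -1.04 to -0.81. Of the 15, 8 met the 2 FPKM rule only through their diestrus mean and so had to be lower: Zfp239, Zfp286, Zfp566, Zfp30, Zfp647, Zfp189, Zfp184 and Zfp128. The other 7 had a mean of at least 2 FPKM in both groups. Zfp61 was at 5.55, 6.27, 7.63 and 7.19 FPKM in diestrus and at 2.60, 2.96 and 2.54 FPKM in estrus (log2 difference -1.04 ± 0.14, SE; limma adjusted p = 0.00300). Zfp286 was at 4.598, 5.386, 3.337 and 4.301 FPKM in diestrus and at 1.62, 1.28 and 1.95 FPKM in estrus. In both genes the lowest diestrus library was well above the highest estrus library. Zfp37 was at 4.23, 5.69, 4.25 and 5.22 FPKM in diestrus and at 1.99, 1.95 and 2.26 FPKM in estrus. Zfp128 was at 2.14, 3.02, 2.93 and 3.31 FPKM in diestrus and at 1.13, 1.12 and 1.27 FPKM in estrus. Zfp358, one of the more abundant of the 15, was at 18.4, 23.7, 19.5 and 24.9 FPKM in diestrus and at 11.3, 10.9 and 13.4 FPKM in estrus. Like the others with values here, it had groups that did not overlap.

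Of these 15 members, 12 passed without any 1 library, which for the 8 just named describes the chosen genes and supports no direction. The call of Zfp30 was lost without estrus replicate 2 (limma adjusted p = 0.0511), and so was that of Zfp184 (adjusted p = 0.078). Zfp422 was the weakest of the 15. It was at 33.9, 52.9, 66.2 and 53.1 FPKM in diestrus and at 34.1, 26.7 and 22.7 FPKM in estrus, so diestrus replicate 1 lay just below estrus replicate 1. Its log2 difference was -0.85 ± 0.24 (SE; limma adjusted p = 0.0320), with an exact permutation p of 0.0857. Leaving out estrus replicate 2 gave an adjusted p of 0.111, estrus replicate 3 gave 0.0874, diestrus replicate 4 gave 0.0761, diestrus replicate 2 gave 0.0668 and diestrus replicate 3 gave 0.0654. In Zfp422, 20.4% of 50-base words also occurred in transcripts of other genes, and in Zfp566 the share was 15.7%, so reads of these 2 genes could be split or misassigned.

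The 10 higher members were led by Zfp946 (chr17:22424182-22456689), a KRAB member with 11 fingers. It was at 6.47, 5.11, 4.32 and 3.91 FPKM in diestrus and at 10.1, 12.1 and 10.9 FPKM in estrus. All 3 estrus libraries were above the highest diestrus library, diestrus replicate 1. Its log2 difference was 1.03 ± 0.17 (SE; limma adjusted p = 0.00541; exact permutation p = 0.0286), a 2.23-fold ratio of means. Zfp692, which has 5 fingers and no KRAB pattern, was at 7.26, 5.59, 7.42 and 4.30 FPKM in diestrus and at 12.8, 10.8 and 12.4 FPKM in estrus (log2 difference 0.88 ± 0.19, SE; limma adjusted p = 0.0130). Zfp946 and Zfp692 were the higher members that passed without any 1 library.

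The other 8 calls depended on single libraries. Zfp52 was at 5.54, 2.76, 8.43 and 4.36 FPKM in diestrus and at 8.88, 11.5 and 10.6 FPKM in estrus, and diestrus replicate 3 came close to estrus replicate 1. Its log2 difference was 0.92 ± 0.29 (SE; limma adjusted p = 0.0462), and it passed only without diestrus replicate 3. The adjusted p was 0.153 without estrus replicate 2, 0.105 without diestrus replicate 4, 0.0979 without estrus replicate 3, 0.0827 without estrus replicate 1, 0.0671 without diestrus replicate 2 and 0.0571 without diestrus replicate 1. Zfp54, on the same chromosome 17 run, was at 3.94, 1.95, 3.01 and 2.09 FPKM in diestrus and at 5.63, 5.82 and 5.78 FPKM in estrus. The estrus values were nearly equal, and its log2 difference was 0.88 ± 0.20 (SE; limma adjusted p = 0.0159, and 0.0711 without estrus replicate 2). Zfp472 was at 5.58, 3.60, 2.86 and 3.16 FPKM in diestrus and at 8.91, 7.19 and 6.24 FPKM in estrus. Its adjusted p was 0.0241 in limma and 0.0511 to 0.0853 without diestrus replicate 2, 3 or 4 or estrus replicate 1 or 2.

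Zfp710 was at 10.01, 12.03, 10.98 and 10.48 FPKM in diestrus and at 14.1, 18.4 and 19.8 FPKM in estrus, and its call was lost without estrus replicate 2 (limma adjusted p = 0.0847). Zfp800 was at 6.20, 5.29, 6.15 and 4.54 FPKM in diestrus and at 9.83, 9.47 and 7.70 FPKM in estrus. Its adjusted p was 0.0954 without estrus replicate 2, 0.0681 without estrus replicate 1 and 0.0530 without diestrus replicate 4 in limma. In both genes the groups did not overlap. Zfp91, Zfp704 and Zfp706 are described with their role lists.

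**Figure D3:**
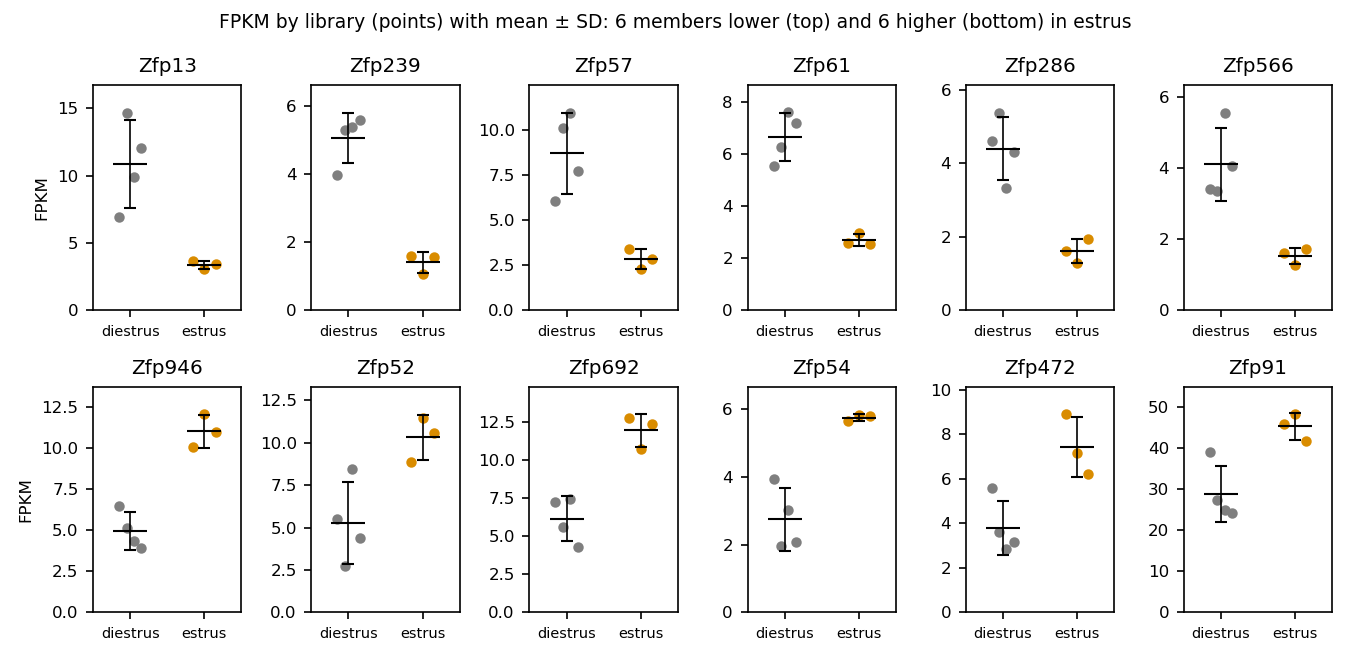
FPKM by library for 6 members that were lower (top row) and 6 that were higher (bottom row) in estrus. Points are libraries (diestrus grey, n = 4; estrus orange, n = 3), and bars are the mean ± SD; in Zfp946 all 3 estrus points lie above the diestrus points, at 10.1 to 12.1 FPKM.

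The most abundant members included both lower and higher genes. Zfp207, which binds spindle microtubules and the checkpoint protein Bub3, had the highest mean of all members and was at 98.1, 76.7, 91.5 and 68.8 FPKM in diestrus and at 120.3, 122.5 and 91.4 FPKM in estrus. The groups overlapped (limma adjusted p = 0.105). Zfp146, made almost entirely of fingers, was at 65.7, 77.9, 76.7 and 75.6 FPKM in diestrus and at 58.8, 49.5 and 47.3 FPKM in estrus. Every estrus library of Zfp146 was lower (log2 difference -0.51 ± 0.12, SE; limma adjusted p = 0.0208), but the call was lost without estrus replicate 2 (0.0997), estrus replicate 3 (0.0600) or diestrus replicate 4 (0.0557). Zfp664 was at 62.1, 69.3, 65.3 and 64.6 FPKM in diestrus and at 48.24, 45.97 and 46.73 FPKM in estrus, with little spread in either group (log2 difference -0.47 ± 0.10, SE; limma adjusted p = 0.0122, and 0.0748 without estrus replicate 2). Zfp106, Zfp740 and Zfp260 did not pass, with limma adjusted p of 0.189, 0.0670 and 0.327.

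The share of lower members was smaller in each higher band of expression level up to 20 FPKM. Among members with a mean of 2 to 3 FPKM, 40.5% of 37 were lower, and at 3 to 5 FPKM 32.9% of 70 were lower. Among other tested genes the shares were 21.9% and 19.9% in these bands. At 5 to 10 FPKM the shares were close, 15.4% of 78 members and 16.1% of other genes, and at 10 to 20 FPKM they were 14.8% of 61 members and 11.97% of other genes. At 20 FPKM or more, 4 of 17 members were lower (23.5%), beside 8.64% of other genes. Higher members were a smaller share than other genes in every band, from 0 of 37 beside 9.40% at 2 to 3 FPKM to 2 of 17 beside 24.1% at 20 FPKM or more. At 2 to 5 FPKM as a whole, 38 of 107 members were lower and 1 higher, beside 20.6% and 10.8% of other genes. At 5 FPKM or more, 25 of 156 were lower and 9 higher, beside 11.3% and 19.8%. Without estrus replicate 2 the lower counts were 12 of 107 and 5 of 156, without diestrus replicate 4 they were 21 and 13, and without estrus replicate 1 the count at 2 to 5 FPKM was 21. The higher count at 5 FPKM or more was 2 without estrus replicate 2, 3 without diestrus replicate 4, 4 without diestrus replicate 2 or estrus replicate 1, and 14 without diestrus replicate 1.

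The rule on the mean bears on the lowest band. A total of 21 members reached 2 FPKM in the diestrus mean but not in the estrus mean, so they had to be lower in estrus, and 16 of them were called. A further 2 members reached it in the estrus mean alone, and 0 of them were called. The 240 members at 2 FPKM or more in both group means held 47 lower (19.6%) and 10 higher genes (4.17%), beside 14.0% and 17.2% of all tested genes, with a median log2 difference of -0.11. Leaving out estrus replicate 2 gave 9 and 2, leaving out diestrus replicate 4 gave 21 and 4, and leaving out estrus replicate 1 gave 27 and 6. Without diestrus replicate 2 the higher count was 5, and without diestrus replicate 1 it was 16. Just inside the threshold, Zfp953, Zfp11 and Zfp184 had means of 2.00, 2.05 and 2.08 FPKM. Just outside it, Zfp940, Zfp418 and Zfp583 had means of 1.99, 1.93 and 1.90 FPKM.

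**Figure D4:**
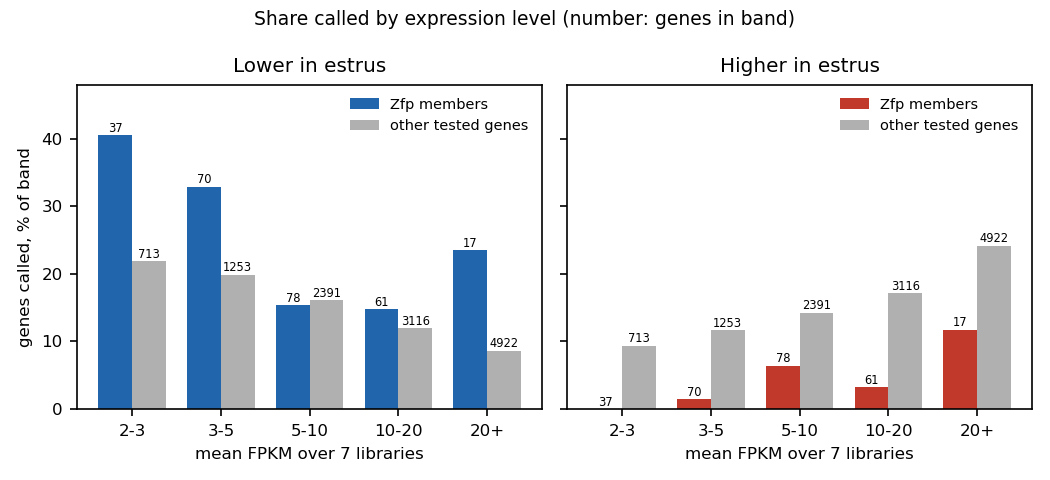
Percent of genes lower (left) and higher (right) in estrus by band of mean FPKM over 7 libraries, for members (coloured) and other tested genes (grey). The number over each bar is the genes in the band; the members' lower share is 40.5% at 2 to 3 FPKM and 15.4% at 5 to 10 FPKM.

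Members with known roles in imprinting or in silencing transposable elements did not move together. The list, like the others used here, was drawn up with earlier results of these data known. Of 10 genes listed, 7 were members, with a median log2 difference of 0.07. Of these, Zfp57 and Zfp708 (28.6%) were lower and 0 were higher, beside 14.0% and 17.2% of all tested genes. Zfp708, a KRAB protein that binds a retroelement family, was at 2.20, 2.98, 3.04 and 2.87 FPKM in diestrus and at 1.272, 1.304 and 1.694 FPKM in estrus (log2 difference -0.64 ± 0.15, SE; limma adjusted p = 0.0168). All of its 50-base words (100%) also occurred in transcripts of other genes, so its value is uncertain, it met the 2 FPKM rule only through diestrus, and its call was lost without estrus replicate 1 (0.0577) or 2 (0.0840). Zfp445, which acts beside Zfp57 at imprinted regions, was at 31.08, 20.03, 20.32 and 17.19 FPKM in diestrus and at 28.1, 28.4 and 27.9 FPKM in estrus (limma adjusted p = 0.174). Zfp809, which silences murine leukaemia proviruses, was at 16.2 to 25.6 FPKM in diestrus and at 20.04 to 29.27 FPKM in estrus, and the groups overlapped (limma adjusted p = 0.458). Zfp568, which represses a placental form of Igf2, and Zfp932 and Zfp961 also did not pass, with limma adjusted p of 0.427, 0.868 and 0.956. Without diestrus replicate 1, 1 member of the list was higher.

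Of 19 listed genes with roles in differentiation, 15 were members, with a median log2 difference of -0.40. Of these, 5 (33.3%) were lower and 1 (6.67%) was higher, beside 14.0% and 17.2% of all tested genes. Zfp423, which commits precursor cells to the fat lineage and acts with Smad and Ebf factors, was at 4.86, 5.95, 4.90 and 4.79 FPKM in diestrus and at 2.44, 1.76 and 2.51 FPKM in estrus. Its groups were well apart (log2 difference -0.92 ± 0.15, SE; limma adjusted p = 0.00475), and it passed in all 7 fits that left out 1 library. Zfp516, a brown fat factor, was at 12.1 to 15.1 FPKM in diestrus and at 8.10 to 9.47 FPKM in estrus (limma adjusted p = 0.0132, and 0.0620 without estrus replicate 2). Zfp503, a developmental repressor with no C2H2 finger by the search pattern, was at 28.4, 46.1, 24.5 and 33.5 FPKM in diestrus and at 16.7, 17.8 and 21.9 FPKM in estrus. Zfp467, a regulator of the choice between bone and fat cells, was at 12.4, 13.1, 10.3 and 16.8 FPKM in diestrus and at 8.22, 6.83 and 9.23 FPKM in estrus. Zfp503 and Zfp467 had groups that did not overlap, but both lost the call without estrus replicate 1 or 2 or diestrus replicate 4, and Zfp467 also without diestrus replicate 2 (limma adjusted p from 0.0683 to 0.140 over the 2 genes).

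Zfp90 was the remaining lower gene of this list, at 5.39, 7.49, 5.48 and 5.45 FPKM in diestrus and at 3.10, 3.58 and 3.58 FPKM in estrus. It shared 70.3% of its 50-base words with other transcripts, so reads may have been split, and it lost the call without estrus replicate 1 (limma adjusted p = 0.0558) or 2 (0.0674). Zfp704 was the higher gene, at 21.1, 13.1, 12.3 and 11.9 FPKM in diestrus and at 19.8, 24.3 and 24.6 FPKM in estrus. Diestrus replicate 1 lay above estrus replicate 1, its adjusted p was 0.0494 (limma; exact permutation p = 0.0857), and it passed only without diestrus replicate 1. Over the list, the lower count was 1 without estrus replicate 2, 2 without estrus replicate 1 and 3 without diestrus replicate 4. The higher count was 2 without diestrus replicate 1 and 0 without any other single library. The remaining 9 members of the list did not pass, and the 4 listed genes below the 2 FPKM threshold were not members.

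Genes listed for RNA or protein turnover held 15 members, with a median log2 difference of 0.02. Of these, 2 (13.3%) were higher and 1 (6.67%) was lower, beside 17.2% and 14.0% of all tested genes. Zfp91, a ubiquitin ligase, was at 39.1, 27.3, 24.9 and 24.3 FPKM in diestrus and at 45.99, 48.25 and 41.66 FPKM in estrus, with diestrus replicate 1 near the lowest estrus library (log2 difference 0.65 ± 0.18, SE; limma adjusted p = 0.0284). Zfp706, a small protein with 1 finger, was at 23.0, 16.4, 19.6 and 19.3 FPKM in diestrus and at 32.8, 29.7 and 23.8 FPKM in estrus (limma adjusted p = 0.0374). Zfp346, which binds double-stranded RNA, was at 15.5, 23.3, 14.5 and 17.8 FPKM in diestrus and at 12.01, 11.20 and 12.01 FPKM in estrus (limma adjusted p = 0.0453). Its 3 estrus libraries were nearly equal and all below diestrus. Without diestrus replicate 2 or 4 or estrus replicate 1 or 2, 0 of these 3 genes passed. Without diestrus replicate 3 the calls of Zfp91 and Zfp706 were lost, and without estrus replicate 3 that of Zfp346 was lost. Without diestrus replicate 1 the list's lower count was 2. Zfp36, which brings about decay of short-lived messenger RNAs, was at 12.7, 27.4, 29.9 and 29.2 FPKM in diestrus and at 17.97, 16.96 and 17.60 FPKM in estrus. Diestrus replicate 1 was below all estrus libraries while the other 3 were above them, and the gene did not pass (limma adjusted p = 0.293).

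Members with and without a KRAB pattern differed in level, and their shares of calls are given within bands of level. Of 139 KRAB members, 36 were lower and 4 higher, with a median log2 difference of -0.19 and a median level of 4.34 FPKM. Of 124 members without the pattern, 27 were lower and 6 higher, with a median log2 difference of -0.12 and a median level of 10.2 FPKM. The lower shares were 25.9% and 21.8%, beside 14.0% of all tested genes, and the higher shares 2.88% and 4.84%, beside 17.2%. At 2 to 5 FPKM, 30 of 84 KRAB members (35.7%) and 8 of 23 others (34.8%) were lower, beside 20.6% of tested genes that were not members. At 5 FPKM or more, 6 of 55 KRAB members (10.9%) and 19 of 101 others (18.8%) were lower, beside 11.3%. The difference between the classes was not tested. Without estrus replicate 2, 12 KRAB members and 5 others were lower. Without diestrus replicate 4 the counts were 20 and 14, without estrus replicate 1 the KRAB count was 20, and without estrus replicate 3 the count of others was 17. The higher counts, 4 and 6, were 1 and 1 without estrus replicate 2, 2 and 2 without diestrus replicate 4, 2 and 3 without diestrus replicate 2, and 8 and 10 without diestrus replicate 1, and the count of others was 3 without diestrus replicate 3 or estrus replicate 1.

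By number of fingers, 5 of 28 members with 0 to 2 fingers were lower, 8 of 45 with 3 to 6, 16 of 60 with 7 to 10, 23 of 83 with 11 to 15 and 11 of 47 with 16 to 30. These shares were 17.9%, 17.8%, 26.7%, 27.7% and 23.4%, beside 14.0% of all tested genes. The median levels of these classes, in the same order, were 15.5, 10.1, 6.31, 4.95 and 3.89 FPKM. Level moved with finger number, and its part in the shares was not tested. Members that shared no 50-base word with another gene were lower in 35 of 103 cases (34.0%). The share was 16 of 101 (15.8%) where up to 10% of words were shared and 12 of 59 (20.3%) where over 10% were, so it did not follow the degree of sharing in order.

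Position on the chromosome was examined after these values had been seen. Chromosome 7 held 65 members, of which 23 were lower and 1 higher, and the other 198 members included 40 lower and 9 higher genes. The lower shares were 35.4% and 20.2%, beside 14.0% of all tested genes on any chromosome. Both shares include members that met the 2 FPKM rule only through diestrus and so had to be lower. On chromosome 7 these include Zfp128, Zfp446, Zfp108, Zfp94, Zfp14, Zfp30, Zfp566 and Zfp658. The difference between the shares was not tested. Members whose starts lay less than 1 Mb apart were joined into runs, and 15 runs of at least 5 members held 123 of the 263 genes. In these runs 33 members (26.8%) were lower, and outside them 30 of 140 (21.4%). Both counts include members that met the 2 FPKM rule only through diestrus. The median level was 5.02 FPKM in the runs and 7.57 FPKM outside them, and 90 and 49 members held a KRAB pattern. What part level, KRAB pattern or the rule had in these shares was not tested. On chromosome 7 from 24081877 to 25227876 (GRCm38), 7 of 11 members between Zfp180 and Zfp526 were lower: Zfp235, Zfp109, Zfp108, Zfp93, Zfp61, Zfp94 and Zfp428. The run's median log2 difference was -0.57. In the same interval, the 15 tested genes whose symbols did not start with Zfp had a median of 0.06, with 4 higher and 2 lower. Zfp108 and Zfp94 met the 2 FPKM rule only through diestrus and had to be lower; of the other 9 members 5 were lower. Among the 3 members of the run with a mean of at least 5 FPKM, 0 were lower when only genes at that level were tested.

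The lower genes of this run were mostly neighbours. Zfp108 was at 2.22, 2.70, 2.85 and 3.31 FPKM in diestrus and at 1.01, 1.11 and 1.39 FPKM in estrus (limma adjusted p = 0.00851). Zfp94 was at 3.19, 2.99, 3.26 and 3.27 FPKM in diestrus and at 1.28, 1.42 and 1.64 FPKM in estrus (limma adjusted p = 0.00475). Both were lower in every estrus library than in any diestrus library, but both met the rule only through diestrus, so this supports no direction. Zfp180, at the start of the run, was at 9.39 to 11.04 FPKM in diestrus and at 11.8 to 12.1 FPKM in estrus, so its groups did not overlap in the other direction (limma adjusted p = 0.158). Zfp574 and Zfp526, at the far end, did not pass (limma adjusted p of 0.694 and 0.402). The lower count of the run was 3 without estrus replicate 2 and 4 without diestrus replicate 4 or estrus replicate 3.

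The second run, on chromosome 7 from 29768552 to 30169775, held 12 members between Zfp84 and Zfp146. It held 0 tested genes whose symbols did not start with Zfp, and Zfp rows that were not members were not counted. Of the 12 members, Zfp30, Zfp420, Zfp383, Zfp74, Zfp14, Zfp566 and Zfp146 were lower. This share was 58.3%, beside 14.0% of all tested genes. The run's median log2 difference was -0.49. Zfp14, Zfp30 and Zfp566 met the 2 FPKM rule only through diestrus, and of the other 9 members 4 were lower. With only genes at a mean of at least 5 FPKM tested, 2 of 6 members were lower. Zfp30 was at 3.08, 3.99, 4.29 and 4.63 FPKM in diestrus and at 1.21, 1.56 and 2.19 FPKM in estrus. Zfp74 was at 5.45, 5.77, 4.74 and 4.87 FPKM in diestrus and at 2.52, 2.18 and 2.99 FPKM in estrus (limma adjusted p = 0.00617). In both the groups were apart, which for Zfp30 supports no direction because of the rule. Their neighbours Zfp84, at 7.06 to 8.30 FPKM in diestrus and 7.62 to 8.16 FPKM in estrus, and Zfp568 overlapped between groups. The lower count was 2 without estrus replicate 2, 3 without diestrus replicate 4 and 4 without estrus replicate 1.

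On chromosome 15 from 75615200 to 76925693, 4 of 6 members were lower: Zfp623, Zfp707, Zfp251 and Zfp647. This share was 66.7%, beside 14.0% of all tested genes. Zfp647 met the 2 FPKM rule only through diestrus, and of the other 5 members 3 were lower. Zfp251 was at 16.3 to 23.0 FPKM in diestrus and at 10.8 to 12.7 FPKM in estrus (limma adjusted p = 0.00955). Zfp647 was at 3.14, 3.92, 3.17 and 3.58 FPKM in diestrus and at 1.77, 1.16 and 1.20 FPKM in estrus (limma adjusted p = 0.00521). In both genes every estrus library was below the diestrus range, which for Zfp647 supports no direction because of the rule. The 44 tested genes of the interval whose symbols did not start with Zfp had a median log2 difference of 0.00, with 7 higher and 5 lower. Without estrus replicate 2, 1 of the 6 members was lower.

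The largest run held 18 members on chromosome 17 from 21008941 to 23599755. Zfp54, Zfp52 and Zfp946 were higher, Zfp13 at its far end was lower, and 14 members did not pass, with a median log2 difference of 0.08. The higher share was 16.7%, near the 17.2% of all tested genes, and the lower share was 5.56%, beside 14.0%. Zfp51 and Zfp53, between Zfp54 and Zfp52, were at 4.72 to 5.85 and 5.93 to 9.84 FPKM in diestrus and at 5.53 to 5.85 and 9.45 to 10.8 FPKM in estrus, with limma adjusted p of 0.633 and 0.101. The run held called members of both directions. The higher count was 1 without estrus replicate 2. In the remaining 11 runs, 0 to 2 members each were lower and 0 or 1 higher.

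**Figure D5:**
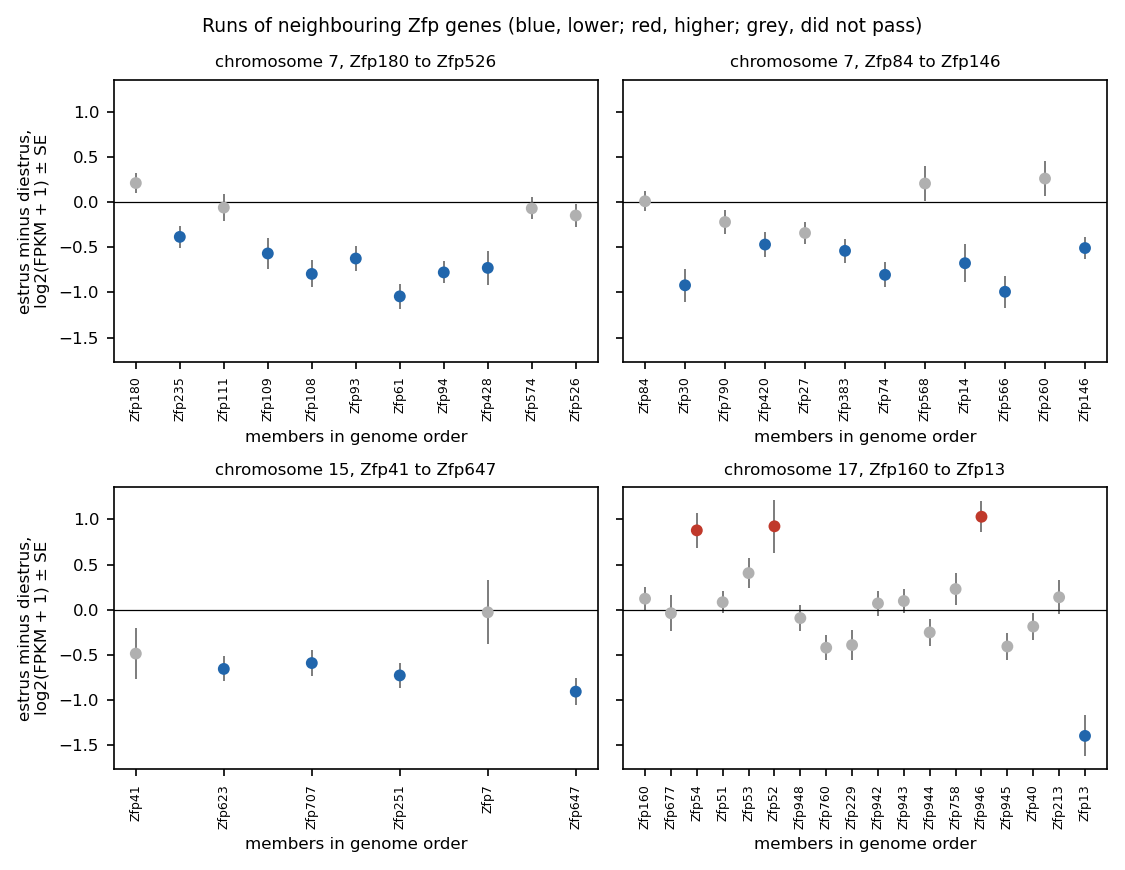
Difference of estrus from diestrus in log2(FPKM + 1) (points, ± SE) for members in genome order in 4 runs on chromosomes 7, 15 and 17. Blue points were lower, red points higher and grey points did not pass; 7 of 11 and 7 of 12 members of the chromosome 7 runs and 4 of 6 of the chromosome 15 run were lower.

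Promoter sequence was available for 218 members, from 250 bases before to 50 bases after the start (RefSeq, GRCm38.p6; the first window listed for each gene). The members' windows held a median of 15 CpG dinucleotides, beside 7 in all 27025 windows, and the medians were 16 in the 51 lower and 11 in the 8 higher members with a window. A full estrogen response element (GGTCANNNTGACC, either strand) was in 0 of 218 members' windows and in 0.0666% of all windows. The progesterone and glucocorticoid element (GNACANNNTGTNC, either strand) was in 0 and 0.463%. The GC box GGGCGG was in 46.8% of the members' windows and 35.9% of all, and CCAAT was in 46.8% and 37.9%, both on either strand. The Zfp57 hexamer TGCCGC was in 19.7% and 11.6%. In the 51 lower members the GC box and CCAAT were each in 35.3%, and the hexamer in 15.7%. In the 8 higher members these shares were 37.5% and 12.5%, and in members that did not pass they were 50.9% and 21.4%. These motifs were searched without regard to overlap, and a match is a description of the letters, not a bound site. The windows of Zfp13 (chr17:23599438-23599737, minus strand) and Zfp946 (chr17:22423952-22424251, plus strand) are shown because these were the members with the largest decrease and the largest increase and lie in the same run. Each held 12 CpG, marked by capitals.

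Zfp13: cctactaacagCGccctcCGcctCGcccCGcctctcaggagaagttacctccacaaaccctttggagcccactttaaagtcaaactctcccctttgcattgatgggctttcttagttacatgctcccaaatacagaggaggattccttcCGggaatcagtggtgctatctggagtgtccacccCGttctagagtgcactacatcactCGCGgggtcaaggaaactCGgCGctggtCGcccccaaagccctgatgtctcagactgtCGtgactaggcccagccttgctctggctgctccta
Zfp946: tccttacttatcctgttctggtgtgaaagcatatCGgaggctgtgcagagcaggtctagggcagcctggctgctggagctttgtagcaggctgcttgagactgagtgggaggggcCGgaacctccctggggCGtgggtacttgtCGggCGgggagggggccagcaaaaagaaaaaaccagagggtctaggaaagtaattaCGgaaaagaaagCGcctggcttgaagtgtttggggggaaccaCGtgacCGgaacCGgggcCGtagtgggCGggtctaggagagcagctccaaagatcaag

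The window of Zfp946 held a GC box and that of Zfp13 held none of the motifs searched.

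Other zinc finger families and the corepressor of KRAB proteins were set beside the members. Of 18 tested Zscan and Zkscan genes, 6 were lower and 0 higher (median log2 difference -0.33), and 3 were lower without estrus replicate 2. Of 19 tested Zfp genes with letters in their symbols, 6 were lower and 1 higher (median -0.04), and 1 was lower without estrus replicate 2, 2 without estrus replicate 1 and 3 without diestrus replicate 3 or 4. Of 38 tested Zbtb genes, 2 were lower and 6 higher (median 0.03). The higher Zbtb count was 1 without estrus replicate 2 and 3 without diestrus replicate 2 or 4 or estrus replicate 1 or 3, and the lower count went from 0 without estrus replicate 2 to 4 without diestrus replicate 1. Of 21 tested genes of the Trim28 corepressor and its heterochromatin partners, 2 were higher (9.52%) and 0 lower (median 0.32). The lower shares were 33.3% of Zscan and Zkscan, 31.6% of lettered Zfp and 5.26% of Zbtb genes, beside 14.0% of all tested genes. The higher shares of the same families were 0, 5.26% and 15.8%, beside 17.2% of all tested genes. Trim28 itself was at 115.5, 97.3, 77.5 and 74.0 FPKM in diestrus and at 141.2, 108.8 and 93.9 FPKM in estrus, and it did not pass (limma adjusted p = 0.245). Cbx5, a heterochromatin protein, was at 24.4, 16.7, 12.3 and 11.04 FPKM in diestrus and at 42.2, 44.5 and 35.8 FPKM in estrus (log2 difference 1.35 ± 0.26, SE; limma adjusted p = 0.00870). The count for this list was 6 without diestrus replicate 1 and 1 without any of diestrus replicates 2, 3 and 4 and estrus replicates 1 and 2.

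Of 16 tested immediate early genes, a list that holds the Zfp36 relatives Zfp36l1 and Zfp36l2, 4 were higher (Fos, Fosl2, Ier3 and Junb) and 3 lower (Atf3, Egr3 and Zfp36l1). These shares were 25.0% and 18.8%, beside 17.2% and 14.0% of all tested genes. Zfp36l1, which like Zfp36 brings about messenger RNA decay, was at 105.8, 188.7, 162.2 and 193.3 FPKM in diestrus and at 87.4, 90.5 and 91.1 FPKM in estrus (limma adjusted p = 0.0271). Its groups did not overlap. The count called was 0 without estrus replicate 2, 3 without estrus replicate 1 or 3 and 4 without diestrus replicate 4.

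Markers of uterine cell types also differed between the groups. Over all tested genes, 17.2% were higher and 14.0% lower, beside 12.5% each of the smooth muscle markers. Of 10 epithelial markers 7 were higher in estrus, with a summed level of 963.8 to 1339 FPKM in diestrus and 3125 to 3606 FPKM in estrus. Of 8 endothelial markers 8 were lower, at 234.8 to 536.9 FPKM summed in diestrus and 136.1 to 173.7 FPKM in estrus, and 0 passed without estrus replicate 2, 4 without estrus replicate 1 and 5 without diestrus replicate 3. Of 10 stromal markers 6 were lower, at 2234 to 4410 FPKM summed in diestrus and 2201 to 3067 FPKM in estrus. Of 7 tested leukocyte markers 4 were lower and 1 higher, at 434.5 to 1108 FPKM summed in diestrus and 265.3 to 392.3 FPKM in estrus, and the lower count was 0 without estrus replicate 2 and 2 without diestrus replicate 4 or estrus replicate 1 or 3. Of 8 smooth muscle markers 1 was higher and 1 lower, at 2644 to 6940 FPKM summed in diestrus and 2964 to 5287 FPKM in estrus, and neither passed without diestrus replicate 2 or 3 or estrus replicate 2 or 3. None of the markers in the table was at 0 in any library. Their part in the lower and higher Zfp genes was not tested.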

How the data were processed

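RNA sequencing measured whole uteri from diestrus (4 libraries) and estrus (3 libraries), grouped by their titles. Per the labels' protocols, RNA was purified on RNeasy columns with DNase and libraries were made with the TruSeq RNA kit. The authors deposited FPKM, 1 column per library. The submitters' processing notes name TopHat2 2.0.4 and the build mm10 (GRCm38) but no role for either. Neither the FPKM program nor its gene models are given in the sources used here. FPKM by its usual definition divides by all mapped fragments, which can let the most abundant transcripts pull down every other value. In the deposited values the median-ratio scaling factors of the libraries ran from 0.992 to 1.011, and such a pull was not tested. Depth cannot be read from FPKM.

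Since FPKM is a scaled value, count models were not applied. A gene was tested where 3 or more libraries reached 1 FPKM. Testing used limma 3.58.1 (R 4.3.3) on log2(FPKM + 1), with an intensity trend, two-sided, and Benjamini-Hochberg adjusted over 13920 genes (threshold 0.05). This scale understates changes of low genes. Members described in full also had a two-sided exact permutation test. The fits were tested on simulated data.

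The members, gene lists and runs were chosen with earlier results of these data known. The text names up to 15 higher and 15 lower members with the largest differences past the threshold, the 8 with the highest mean, members of the role lists, and the 3 on each side of the 2 FPKM threshold. Neighbours in the runs were named after their values were seen. The values of 1 gene of the corepressor list are not reported here. RefSeq (GRCm38.p6) gave coordinates for 260 members by current symbol and 3 by synonym. Fingers and KRAB patterns were planned on RefSeq proteins and were found in GENCODE M21 coding sequences instead. Alternatives were each library left out, a replicate block, pseudocounts of 0.1 and 5, median-ratio scaling, no filter, quantile normalization, robust moderation, no trend, and only genes with a mean of 5 FPKM or more. Figures were drawn with matplotlib 3.10.9.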

Additional observations from a re-analysis of the deposited data

Results flagged for a closer look

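In 6 of the 66 groups of 4 diestrus libraries examined, 1 library lay far from the other 3: its gap to the nearest of the others took more of the group's range than is usual for 4 values. About 1 in 20 groups is expected to be picked out this way by chance. The gap took 0.959 of the diestrus range in Zfp90 (7.49 FPKM in replicate 2, 5.39 to 5.48 in the others). It took 0.911 in Zfp423 (5.95 FPKM in replicate 2, 4.79 to 4.90 in the others). In Zfp953 it took 0.900 (2.44 FPKM in replicate 1, 1.25 to 1.37 in the others), and in Zfp704 it took 0.866 (21.1 FPKM in replicate 1, 11.9 to 13.1 in the others). In Zfp36 it took 0.857 (12.7 FPKM in replicate 1, 27.4 to 29.9 in the others), and in Zfp260 it took 0.840 (45.8 FPKM in replicate 1, 26.5 to 29.6 in the others). Replicate 1 was the distant library in Zfp953, Zfp704, Zfp36 and Zfp260, and replicate 2 in Zfp90 and Zfp423.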

How the results depend on the processing

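No called member changed sign under any of the alternatives run. In 62 of the 63 lower and 9 of the 10 higher members the groups did not overlap. For these, leaving out a library or changing the pseudocount or filter could not change the sign. Leaving out 1 library gave 2 to 18 higher and 17 to 67 lower members, 1433 to 5311 genes called over the whole table, 1 to 6 corepressor genes and 0 to 8 immediate early genes. With the replicate number as a block, 3 members were higher and 20 lower, 2281 genes were called over the table, and 1 corepressor and 3 immediate early genes were called. Whether the numbers pair the libraries is unknown. Deviations of same-numbered libraries correlated at 0.198, 0.0243 and 0.169. Diestrus replicate 1 correlated best with estrus replicate 2 (0.206). The highest value was that of diestrus replicate 4 with estrus replicate 3 (0.267), and the lowest that of diestrus replicate 1 with estrus replicate 3 (-0.326). With so few libraries these values cannot settle whether there was a pairing. Requiring a mean of at least 5 FPKM left 156 members, of which 25 were lower. No filter gave 7 higher and 47 lower members, and quantile normalization gave 7 and 56, with 1 corepressor and 4 immediate early genes called. For single named genes over all alternatives, 1077 values kept their side of the threshold, 134 lost the call and 14 gained it, and 28 of the losses came without estrus replicate 2 and 23 with the block. The median log2 difference of the members stayed between -0.20 and -0.08. Its causes were not tested. FPKM gives no depth, so counting error could not be set against the spread between libraries.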
